A study of Mus musculus with 42 samples.

Results

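The tumour suppressor p53, encoded by Trp53, and 9 of its target genes were followed in mouse bone-marrow-derived macrophages (BMDM), macrophages grown from bone marrow in culture. The set held Trp53, Mdm2, Cdkn1a, Ccng1, Bax, Bbc3, Zmat3, Phlda3, Trp53inp1 and Sesn1, found by gene symbol as 10 of 37310 gene identifiers in a table of RNA-seq read counts. All 10 passed the filter on low counts, which kept 11624 genes. They were chosen by name with earlier results of these data known, namely the lower read count of Ccng1, scaled for library size, in untreated cells labelled KO at 0 h.

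p53 is a transcription factor that cells hold at a low level by degrading the protein, and DNA damage or other stress stabilises it. It then switches on genes that stop the cell cycle (Cdkn1a, Ccng1), start apoptosis (Bax, Bbc3) or adjust metabolism and survival (Sesn1, Phlda3, Trp53inp1, Zmat3), along with Mdm2, whose product marks p53 for degradation and so closes a feedback loop. Since p53 is controlled mainly as a protein, mRNA levels do not measure its activity. Several of its targets also answer to other transcription factors, and in macrophages Cdkn1a is known as a brake on proliferation and inflammatory signalling.

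The cells came from young adult male mice. Animals labelled KO descended from a cross of Irf5 flox/flox mice, in which the gene for interferon regulatory factor 5 is flanked by loxP sites, with LysM-Cre mice, whose Cre recombinase is driven by the Lyz2 (LysM) promoter, active in myeloid cells. Animals labelled WT were littermates, and their floxed and Cre alleles are not given in the sources used here. Control cells of either genotype stayed untreated for 0, 2 or 24 h, and others received palmitate, a saturated fatty acid, or lipopolysaccharide (LPS), a bacterial cell wall component, for 2 or 24 h. Each of the 14 groups held 3 libraries, which the labels do not tie to particular mice, so that p-values measure the spread between these libraries, which may be technical. Libraries are numbered within a group only to name them.

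The total count per library ranged from 2848793 to 7743442 with a median of 5625399, and 3 counts corresponded to 0.387 to 1.05 counts per 1000000 (CPM) depending on the library. Irf5 itself, counted over the whole gene, lay at 210 to 389 CPM in WT and 267 to 430 CPM in libraries labelled KO. In 6 of 7 conditions every library labelled KO was above every WT library. Such a count does not show the loss that the label names, and it cannot tell whether only part of the gene was deleted. Lyz2, the gene whose promoter drives Cre, was lower in the libraries labelled KO without overlap in 7 of 7 conditions. The paper names the Cre line as an allele of Lyz2, so this difference follows the label. Genotypes are therefore called by their labels throughout. All 10 macrophage markers examined exceeded 3 counts in every library, while the summed level of 7 B cell genes stayed at or below 14.8 CPM, of 7 erythroid genes at or below 0.865 CPM and of 7 dendritic cell genes at or below 12.7 CPM. A list of 8 T or NK cell genes summed to 18.8 to 43.8 CPM, of which 18.3 to 43.1 CPM was Cd4, and Cd3d, Cd3e and Cd3g stayed at or below 1.90 CPM. Fibroblast genes, led by Col1a1, summed to between 0 and 306 CPM and varied between libraries of a group, and in 6 of 7 conditions the summed granulocyte precursor genes of KO lay above those of WT without overlap, so both are given beside the genotype comparisons.

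Promoters were looked up in RefSeq for build GRCm38 (mm10), as the 250 bases before to 50 bases after each transcription start, 300 bases in all. Of the 10 genes, 8 were found, with 12 promoters between them, and Zmat3 and Trp53inp1 were not. The motif searched was the consensus p53 half-site of 10 bases, with an exact match and on both strands, which are equivalent because the consensus is its own reverse complement. It occurred in promoters of 6 of the 8 genes (Trp53, Ccng1, Cdkn1a, Mdm2, Bax and Sesn1) and in none of those of Bbc3 and Phlda3. For comparison, 8.36% of all 32851 promoters and 9.55% of 27025 genes held it. A match is a description of the letters and does not show that p53 binds there.

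The promoters of the 2 genes with the largest rise under LPS, Cdkn1a and Mdm2, of Ccng1, the gene that stood out at 0 h, and of Trp53 itself are shown so that the position of the half-site, in capitals, can be seen. Cdkn1a has 2 promoters in the table and the upstream one, with 2 half-sites beginning 73 and 51 bases before the start, is printed (chr17:29090729-29091028, plus strand). Mdm2 (chr10:117710709-117711008, minus strand) held 1 half-site 186 bases before the start, Ccng1 (chr11:40755237-40755536, minus strand) 1 at 185 bases and Trp53 (chr11:69580109-69580408, plus strand) 1 at 75 bases.
Cdkn1a: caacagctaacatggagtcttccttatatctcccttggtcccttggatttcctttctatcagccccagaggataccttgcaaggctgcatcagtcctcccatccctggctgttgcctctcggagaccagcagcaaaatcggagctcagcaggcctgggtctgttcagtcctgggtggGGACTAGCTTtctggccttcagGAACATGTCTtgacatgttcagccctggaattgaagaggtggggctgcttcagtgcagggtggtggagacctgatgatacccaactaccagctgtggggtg
Mdm2: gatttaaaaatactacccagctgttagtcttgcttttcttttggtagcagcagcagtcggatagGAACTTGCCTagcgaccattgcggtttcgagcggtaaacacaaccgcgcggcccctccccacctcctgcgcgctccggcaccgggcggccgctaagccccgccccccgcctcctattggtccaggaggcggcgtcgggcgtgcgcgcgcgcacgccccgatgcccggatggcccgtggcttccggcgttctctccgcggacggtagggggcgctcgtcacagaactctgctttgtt
Ccng1: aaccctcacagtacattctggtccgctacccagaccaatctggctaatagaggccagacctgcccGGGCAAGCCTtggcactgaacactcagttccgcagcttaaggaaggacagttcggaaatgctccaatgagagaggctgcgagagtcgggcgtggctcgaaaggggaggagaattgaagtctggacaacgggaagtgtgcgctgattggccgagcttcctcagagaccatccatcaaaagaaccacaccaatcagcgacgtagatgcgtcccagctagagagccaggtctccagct
Trp53: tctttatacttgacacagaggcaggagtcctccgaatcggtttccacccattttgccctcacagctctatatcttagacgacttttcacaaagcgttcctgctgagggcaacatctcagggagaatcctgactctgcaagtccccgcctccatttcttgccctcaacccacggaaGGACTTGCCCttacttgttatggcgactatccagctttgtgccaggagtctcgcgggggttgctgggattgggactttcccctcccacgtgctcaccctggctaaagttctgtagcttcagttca

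The half-sites of Bax (chr7:45467090-45467099, minus strand, 201 bases before the start) and Sesn1 (chr10:41887266-41887275, plus strand, 173 bases before the start of the downstream of 2 promoters) are given with 10 bases on either side. These 2 genes are set side by side because they hold the same motif and moved differently under LPS.
Bax: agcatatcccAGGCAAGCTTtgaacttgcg
Sesn1: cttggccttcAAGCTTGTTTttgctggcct

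**Figure D1:**
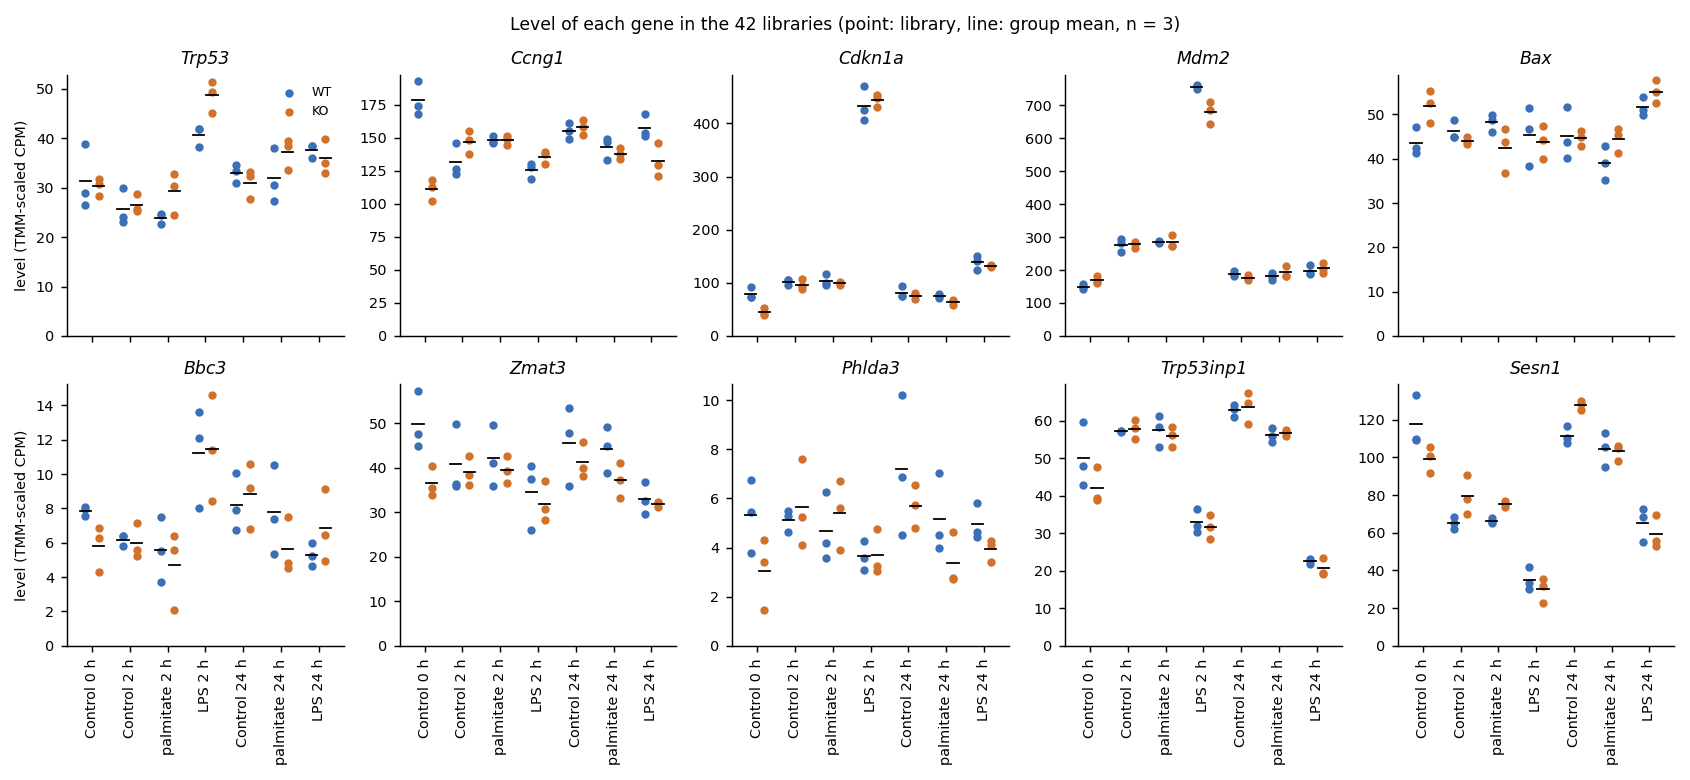
Level of each of the 10 genes (TMM-scaled CPM, linear axis from 0) in every library of the 7 conditions, WT in blue and labelled KO in orange, with a line at the mean of 3 libraries. Cdkn1a and Mdm2 peak at LPS 2 h, Trp53inp1 is lowest at LPS 24 h, Sesn1 is lowest at LPS 2 h, and Ccng1 separates the genotypes at Control 0 h.

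Levels of different genes were compared per kilobase of exon. Averaged over all libraries, the order was Mdm2 (56.5 CPM per kilobase), Ccng1 (40.9), Cdkn1a (39.6), Bax (29.3), Sesn1 (20.5 CPM per kilobase), Trp53 (8.18), Trp53inp1 (7.36), Zmat3 (3.42), Bbc3 (3.41) and Phlda3 (3.06 CPM per kilobase). This order is an average over unlike conditions. In WT Control 0 h, before any treatment, Ccng1 led with 50.9 ± 3.78 CPM per kilobase (SD, n = 3). Sesn1 (29.5 ± 3.42), Mdm2 (29.4 ± 1.62) and Bax (27.7 ± 1.92 CPM per kilobase) followed within their spread of each other, then Cdkn1a at 22.4 ± 3.06 CPM per kilobase. Trp53 (7.78 ± 1.62) and Trp53inp1 (7.73 ± 1.33 CPM per kilobase) overlapped. Lowest were Zmat3 (4.37 ± 0.561), which lay above Bbc3 (3.71 ± 0.122 CPM per kilobase) in every library, and Phlda3 (3.41 ± 0.951 CPM per kilobase), which overlapped both. Bbc3 and Phlda3 rested on few reads, 14 to 72 and 8 to 70 counts per library, against 648 to 4080 for Mdm2. All further levels are CPM of one gene across libraries.

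LPS changed most of the genes, in both directions, within 2 h. Trp53, Mdm2, Cdkn1a and Bbc3 rose in either genotype, Trp53inp1 and Sesn1 fell, and Ccng1, Bax, Zmat3 and Phlda3 did not pass the test. That is 6 of 10 genes called in WT, where 23.1% of all tested genes were called, and 6 of 10 in cells labelled KO, where 23.9% were. The median log2 fold change of the 10 genes was -0.038 in WT and -0.053 in KO, beside -0.009 and -0.011 over all genes tested. In bulk libraries, fewer cells of a type and less RNA per cell cannot be told apart. Fold changes are log2 values with their standard error from edgeR's quasi-likelihood test. P-values were adjusted by Benjamini-Hochberg over the 11624 genes, and "called" means below 0.05 after adjustment.

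Trp53 (chromosome 11, 69580359 to 69591873) encodes p53 itself. At 2 h its level was 30, 23.99 and 22.97 CPM in the Control libraries of WT and 41.9, 38.2 and 41.97 CPM under LPS. In cells labelled KO it was 25.7, 28.8 and 25.3 CPM in Control and 45.2, 49.4 and 51.5 CPM under LPS. In both genotypes every LPS library lay above every Control library. This is a log2 fold change of 0.67 ± 0.13 in WT (SE, adjusted p = 6.24e-05) and 0.88 ± 0.13 (SE, adjusted p = 2.25e-07) in KO. At 24 h neither genotype was called, with a log2 fold change of 0.19 ± 0.12 (adjusted p = 0.252) in WT and 0.21 ± 0.13 (adjusted p = 0.196) in KO. The WT libraries did not overlap at 24 h, at 36.1 to 38.4 CPM under LPS and 30.9 to 34.6 CPM in Control, and those of KO did.

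Mdm2 (chromosome 10, 117688875 to 117710758) encodes the ubiquitin ligase that opposes p53, and it rose sharply at 2 h. At 2 h it lay at 293, 283 and 255 CPM in WT Control and 750.2, 763 and 758 CPM in WT LPS. The libraries labelled KO held 281, 286 and 267 CPM in Control and 685, 643 and 709 CPM under LPS. The LPS libraries were tightly grouped and far above Control, a 2.73-fold rise in WT (log2 fold change 1.45 ± 0.068, SE, adjusted p = 4.84e-24) and a 2.44-fold rise in KO (1.29 ± 0.068, adjusted p = 6e-22). At 24 h the libraries of WT overlapped, with 215, 192 and 187 CPM under LPS beside 182, 197 and 188 CPM in Control in WT (log2 fold change 0.065 ± 0.071, adjusted p = 0.506). In KO a small rise was called at 24 h (0.21 ± 0.070, adjusted p = 0.014). That call was lost when single libraries were left out, with an adjusted p of 0.0577 without KO Control 24 h library 1 and 0.132 without KO LPS 24 h library 1.

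Cdkn1a (chromosome 17, 29090976 to 29100727) encodes p21, an inhibitor of cyclin-dependent kinases, and had the largest LPS response of the 10 genes. Control libraries at 2 h held 106, 96.5 and 105 CPM in WT and 106, 88.6 and 94.3 CPM in KO. Under LPS they held 406, 471 and 425 CPM and 431, 454 and 449 CPM, so that all 6 LPS libraries stood well clear of all 6 Controls. The rise was 4.24-fold in WT (log2 fold change 2.09 ± 0.090, SE, adjusted p = 1.77e-25) and 4.61-fold in KO (2.21 ± 0.091, adjusted p = 2.4e-26). Cdkn1a was still higher at 24 h, at 151, 124 and 141 CPM under LPS against 74.95, 74.2 and 94.1 CPM in Control in WT, and at 130.2, 134 and 132 CPM against 80.5, 77.8 and 69.2 CPM in KO. The late rise was 1.69-fold in WT (0.76 ± 0.094, adjusted p = 2.31e-09) and 1.75-fold in KO (0.81 ± 0.095, adjusted p = 5.52e-10). An annotated transcript on the opposite strand shares 273 exon bases with Cdkn1a and is not in the count table, and whether the counting used strand is not given in the sources used here.

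Ccng1 (chromosome 11, 40748552 to 40755311) encodes cyclin G1, a p53 target that recruits a phosphatase to MDM2. LPS at 2 h left it within the spread of Control, with a log2 fold change of -0.069 in WT (95% interval -0.22 to 0.078) and -0.11 in KO (-0.26 to 0.034). At 24 h the WT value was 0.017 (-0.12 to 0.16). In KO it was called lower, with 121, 129 and 146 CPM under LPS against 164, 159 and 152 CPM in Control (-0.25 ± 0.072, SE, adjusted p = 0.00335). Groups did not overlap, and the adjusted p was 0.0501 without KO LPS 24 h library 1. The difference between the genotypes in this response was -0.27 ± 0.10 (adjusted p = 0.924) and did not pass the test.

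**Figure D2:**
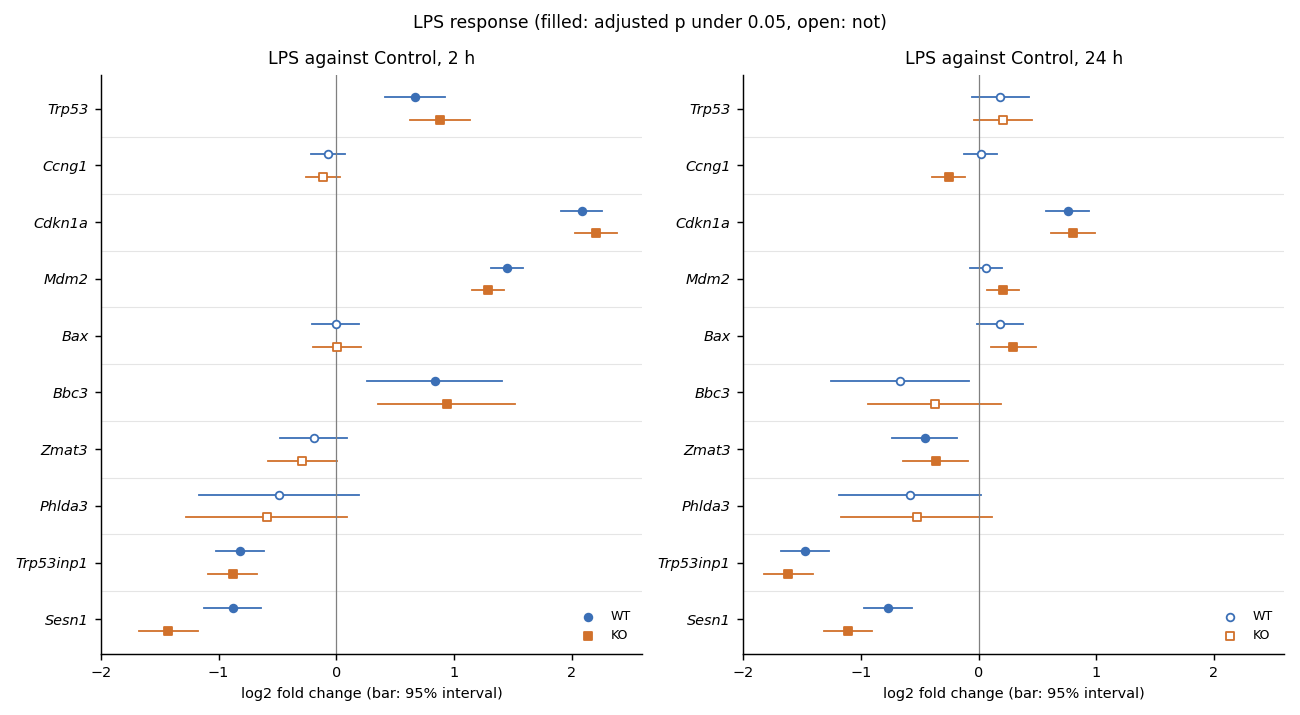
Log2 fold change of LPS against Control at 2 h (left) and 24 h (right) for the 10 genes, WT as circles and labelled KO as squares, with 95% intervals. Filled symbols passed an adjusted p of 0.05. In the right panel Mdm2 and Trp53 lie lower than at 2 h but above 0, with Mdm2 in KO filled. Bbc3 lies below 0, and Trp53inp1 lies further below 0 than at 2 h.

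The apoptosis genes Bbc3 and Bax differed. Bbc3 (chromosome 7, 16308393 to 16318205) encodes PUMA, a BH3-only protein that starts the mitochondrial death pathway. It rose at 2 h from 6.39, 5.79 and 6.37 CPM to 13.6, 8.02 and 12.1 CPM in WT, and from 5.25, 7.16 and 5.60 CPM to 11.4, 14.6 and 8.43 CPM in KO. The libraries did not overlap in either genotype, but the level is low and the calls were near the threshold, at 0.84 ± 0.29 (SE, adjusted p = 0.0319) in WT and 0.94 ± 0.30 (adjusted p = 0.0148) in KO. In WT the adjusted p was 0.0639 without WT Control 2 h library 1, 0.0927 without WT Control 2 h library 2, 0.0691 without WT Control 2 h library 3, 0.13 without WT LPS 2 h library 1 and 0.123 without WT LPS 2 h library 3. In KO it was 0.0663 without KO Control 2 h library 1, 0.0575 without KO Control 2 h library 3 and 0.156 without KO LPS 2 h library 2. At 24 h Bbc3 had a log2 fold change of -0.67 ± 0.30 (adjusted p = 0.0717) in WT and -0.37 ± 0.29 (adjusted p = 0.321) in KO, neither of which was called. When only the libraries compared were fitted, the WT value was called lower (-0.675, adjusted p = 0.0395).

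Bax (chromosome 7, 45461697 to 45466898), the effector that permeabilises mitochondria, showed no difference at 2 h. Its log2 fold change was -0.007 in WT (95% interval -0.21 to 0.19) and 0.006 in KO (-0.20 to 0.21), intervals that leave out changes as large as those of Trp53. At 24 h Bax held 55.02, 57.9 and 52.6 CPM under LPS against 42.96, 46.3 and 45.02 CPM in Control in cells labelled KO, without overlap (0.30 ± 0.098, SE, adjusted p = 0.012). The adjusted p was 0.0514 without KO LPS 24 h library 2 and 0.0569 without the filter on low counts. In WT the 24 h value was 0.18 ± 0.099 (adjusted p = 0.141), and the groups overlapped. Without WT Control 24 h library 2 it was called higher (0.294, adjusted p = 0.0314). A transcript that shares 192 exon bases with Bax on the same strand is annotated and is not in the count table.

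Trp53inp1 (chromosome 4, 11156431 to 11174379) encodes a stress protein of p53-dependent cell death and autophagy, and it fell under LPS at both times. At 2 h it went from 57.3, 57.1 and 57.2 CPM to 36.5, 31.9 and 30.3 CPM in WT (-0.82 ± 0.10, SE, adjusted p = 9.8e-09). At 24 h it went from 63.2, 60.9 and 64.3 CPM to 21.7, 23.2 and 22.7 CPM (-1.48 ± 0.10, adjusted p = 3.82e-17), so that all 3 LPS libraries were below those of 2 h. Libraries labelled KO showed the same order, with 34.9, 28.6 and 31.8 CPM at 2 h (-0.88 ± 0.11, adjusted p = 2.02e-09) and 23.4, 19.4 and 19.2 CPM at 24 h (-1.62 ± 0.10, adjusted p = 1.57e-18).

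Sesn1 (chromosome 10, 41809935 to 41908424) encodes sestrin 1, a stress protein that restrains the growth kinase mTORC1. In WT it held 62.1, 65.2 and 68.6 CPM in Control and 33.3, 30.2 and 41.97 CPM under LPS at 2 h (-0.88 ± 0.12, SE, adjusted p = 8.03e-08). In KO it held 78.2, 90.6 and 69.7 CPM and 35.7, 31.8 and 22.9 CPM (-1.43 ± 0.13, adjusted p = 1.66e-13), and no LPS library reached a Control library in either genotype. At 24 h LPS libraries again lay below all Controls, at 68.5, 55.1 and 72.7 CPM in WT (-0.77 ± 0.11, adjusted p = 2.8e-08) and 52.9, 69.7 and 55.6 CPM in KO (-1.11 ± 0.11, adjusted p = 8.83e-13). The fall was numerically deeper in cells labelled KO at both times, by -0.55 ± 0.18 at 2 h (adjusted p = 0.376) and -0.34 ± 0.15 at 24 h (adjusted p = 0.924), and neither difference passed the test.

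Zmat3 and Phlda3 completed the set. Zmat3 (chromosome 3, 32334792 to 32366014), an RNA-binding protein gene, was called lower at 24 h in WT (-0.46 ± 0.14, SE, adjusted p = 0.00768) and in KO (-0.36 ± 0.14, adjusted p = 0.0351). In WT the libraries overlapped, with 36.8, 29.6 and 32.5 CPM under LPS and 53.3, 35.8 and 47.8 CPM in Control, and the adjusted p was 0.0699 without WT Control 24 h library 1. In KO they did not overlap (32.4, 31.2 and 32.1 against 45.7, 38.3 and 39.9 CPM). There the adjusted p was 0.141 without KO Control 24 h library 1, 0.0571 without KO Control 24 h library 3, 0.0637 without KO LPS 24 h library 1, 0.0817 without KO LPS 24 h library 2 and 0.0736 without KO LPS 24 h library 3. Phlda3 (chromosome 1, 135766119 to 135769136), whose product competes with AKT for membrane lipids, was not called in any LPS comparison. Its log2 fold changes were between -0.59 and -0.49, and with 8 to 70 counts per library the intervals reached from -1.27 to 0.19.

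Across the 4 LPS comparisons, 23 of 40 tests on these genes were called, where the share of all genes called was 23.1% and 23.9% at 2 h and 39.5% and 40.9% at 24 h in WT and KO. By direction, 14% of all genes rose and 9.1% fell at 2 h in WT, and 14.7% and 9.16% in KO. At 24 h the calls were 4 of 10 in WT (1 higher, 3 lower, beside 19.6% and 19.9% of all genes) and 7 of 10 in KO (3 higher, 4 lower, beside 19.9% and 21%). Without the 4 libraries with the lowest total counts, an alternative chosen after seeing the data, 19 of the 40 were called.

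The change between the early and the late LPS response was tested directly, as the LPS effect at 24 h minus that at 2 h over both genotypes. Cdkn1a (-1.36 ± 0.092, SE, adjusted p = 7.37e-18), Mdm2 (-1.23 ± 0.069, adjusted p = 5.97e-21), Bbc3 (-1.41 ± 0.29, adjusted p = 8.22e-05) and Trp53 (-0.58 ± 0.13, adjusted p = 0.000175) were less raised at 24 h. Trp53inp1 was lowered further (-0.70 ± 0.11, adjusted p = 2.54e-07). Bax moved the other way (0.24 ± 0.10, adjusted p = 0.046), a call lost with DESeq2 (adjusted p = 0.0638), without the filter on low counts (0.133), without the 4 libraries with the lowest total counts (0.292) and without single libraries. For Bax the adjusted p was 0.0678 without WT Control 2 h library 3, 0.0825 without WT LPS 2 h library 1, 0.0545 without WT LPS 2 h library 3, 0.074 without WT Control 24 h library 1, 0.0645 without WT Control 24 h library 3, 0.0619 without WT LPS 24 h library 3, 0.0528 without KO Control 2 h library 1, 0.0656 without KO LPS 2 h library 1, 0.057 without KO Control 24 h library 1 and 0.0621 without KO LPS 24 h library 2. Sesn1, Ccng1, Zmat3 and Phlda3 were not called, which makes 6 of 10 genes called where 46.3% of all genes were. Sesn1 had 0.22 ± 0.12 (adjusted p = 0.127) and became called without single libraries, at an adjusted p of 0.0346 without WT LPS 2 h library 3, 0.0393 without WT LPS 24 h library 2 and 0.0474 without KO LPS 2 h library 1. Controls at 2 h and 24 h enter this comparison on both sides, so the values are not independent of those above.

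Other known p53 targets did not move as one group either. Of 35 listed genes outside the set, 32 were tested. At LPS 2 h, 7 rose and 5 fell in WT (list median -0.078, all genes -0.009), and 8 rose and 5 fell in KO (-0.073, all genes -0.011). These calls are 37.5% and 40.6% of the tested list, beside 23.1% and 23.9% of all genes. Those that rose included Gdf15 (1.56 ± 0.15 in WT, SE), a stress-induced cytokine gene, Gadd45a (1.16 ± 0.12 in WT, 1.44 ± 0.13 in KO), a growth arrest gene, Plk2 (0.77 ± 0.086 and 0.69 ± 0.088), a polo-like kinase, and Apaf1 (0.72 ± 0.10 in KO), the scaffold of the apoptosome. Those that fell included Xpc (-0.79 ± 0.10 and -0.89 ± 0.11), which recognises DNA lesions, Plk3 (-0.55 ± 0.13 and -0.72 ± 0.13), Sesn2 (-0.998 ± 0.14 in WT) and Triap1 (-0.82 ± 0.17 in KO). At 24 h 3 rose and 11 fell in WT (list median -0.13), and 3 rose and 9 fell in KO (-0.035). That is 43.8% and 37.5% of the list, near the 39.5% and 40.9% of all genes. Plk2 (-1.35 ± 0.097 and -1.29 ± 0.094) and the epoxide hydrolase Ephx1 (-1.25 ± 0.13 and -1.48 ± 0.13) fell, and the death receptor gene Fas (1.46 ± 0.24 and 1.30 ± 0.24) and Sesn2 (0.39 ± 0.13 and 0.78 ± 0.13) rose. The largest adjusted p among these named calls was that of Sesn2 at 24 h in WT, 0.014.

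Genes that act on p53 were measured too. Of 22 listed regulators, 19 were tested, and at LPS 2 h 3 rose and 2 fell in WT and 4 rose and 2 fell in KO. That is 26.3% and 31.6% of the list, beside 23.1% and 23.9% of all genes. The ubiquitin ligase Cop1 (0.29 ± 0.090 and 0.70 ± 0.091, SE), the deacetylase Sirt1 (0.44 ± 0.14 and 0.76 ± 0.15) and the acetyltransferase Crebbp (0.19 ± 0.060 and 0.36 ± 0.061) rose in WT and KO, and the acetyltransferase Ep300 (-0.38 ± 0.066 and -0.32 ± 0.066) fell. At 24 h 1 rose and 6 fell in WT and 3 rose and 7 fell in KO, among them the kinase genes Hipk2 (-1.07 ± 0.090 and -0.70 ± 0.089) and Chek2 (-0.72 ± 0.18 and -0.76 ± 0.18), which fell in both. These calls are 36.8% and 52.6% of the list, beside 39.5% and 40.9% of all genes.

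The BCL2 family around Bax and Bbc3 was also divided. Of 15 listed genes, 13 were in the table and 10 were tested, and at LPS 2 h 3 rose and 2 fell in either genotype. Those 5 are 50% of the tested list, beside 23.1% of all genes in WT and 23.9% in KO. The survival gene Mcl1 went from 557 ± 23.1 to 1240.0 ± 16.3 CPM in WT (SD, n = 3, log2 fold change 1.16 ± 0.060, SE), and the death-promoting Bcl2l11 (BIM) from 157 ± 10.1 to 336 ± 7.68 CPM (1.10 ± 0.076). Bmf fell from 19.6 ± 1.78 to 2.09 ± 0.264 CPM (-3.18 ± 0.25) and the survival gene Bcl2l1 (BCL-XL) by less (-0.48 ± 0.078). Bcl2a1b rose as well (2.59 ± 0.53), but it has near-identical copies in the mouse genome, so its count is uncertain. At 24 h Bak1, the partner of Bax, rose (1.04 ± 0.10 in WT, 1.001 ± 0.10 in KO) and Mcl1 stayed raised (0.50 ± 0.060 and 0.50 ± 0.060), while Bcl2l11 (-0.91 ± 0.083 and -0.92 ± 0.084) and Bcl2 (-1.56 ± 0.20 and -1.48 ± 0.19) fell. At 24 h 4 of 10 were called in WT and 6 of 10 in KO, beside 39.5% and 40.9% of all genes. Hrk had no count in any library.

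Of 6 other cyclin-dependent kinase inhibitors listed, 5 were in the table and 4 were tested, and those called under LPS, 1 at 2 h in WT, 1 at 24 h in WT and 3 at 24 h in KO, were all lower (all genes called, 23.1% at 2 h in WT, 39.5% and 40.9% at 24 h). Cdkn1b (p27) fell at 2 h in WT (-0.39 ± 0.14, SE, adjusted p = 0.0423), and Cdkn2c fell at 24 h (-1.89 ± 0.33 in WT, -1.85 ± 0.33 in KO). Among 18 cell cycle genes, Mki67 rose at LPS 2 h (1.68 ± 0.10 in WT, 1.59 ± 0.10 in KO). Top2a also rose in KO (0.34 ± 0.12, adjusted p = 0.0352). These calls are 5.56% of the list in WT and 11.1% in KO, beside 23.1% and 23.9% of all genes. The median log2 fold change of the list at 2 h was 0.001 in WT and -0.058 in KO. Its summed level was higher under LPS at 2 h, at 1154 to 1427 CPM against 705 to 1025 CPM in Control in WT. In KO it was 1397 to 1539 CPM against 928 to 1022 CPM. Mki67 alone had means of 636 and 198 CPM under LPS and in Control in WT, and of 738 and 244 CPM in KO. At LPS 24 h 17 of the 18 (94.4%) fell in either genotype, where 19.9% and 21% of all genes fell, with a median log2 fold change of -1.49 in WT and -1.41 in KO. Their summed level was 425 to 501 CPM under LPS in WT against 953 to 978 CPM in Control, and 468 to 527 CPM against 974 to 1070 CPM in KO. Cdkn1a was thus highest at 2 h, when most genes of this list did not pass the test and the list medians lay near 0. At 24 h Cdkn1a was above Control but below its 2 h level, while the list was low.

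**Figure D3:**
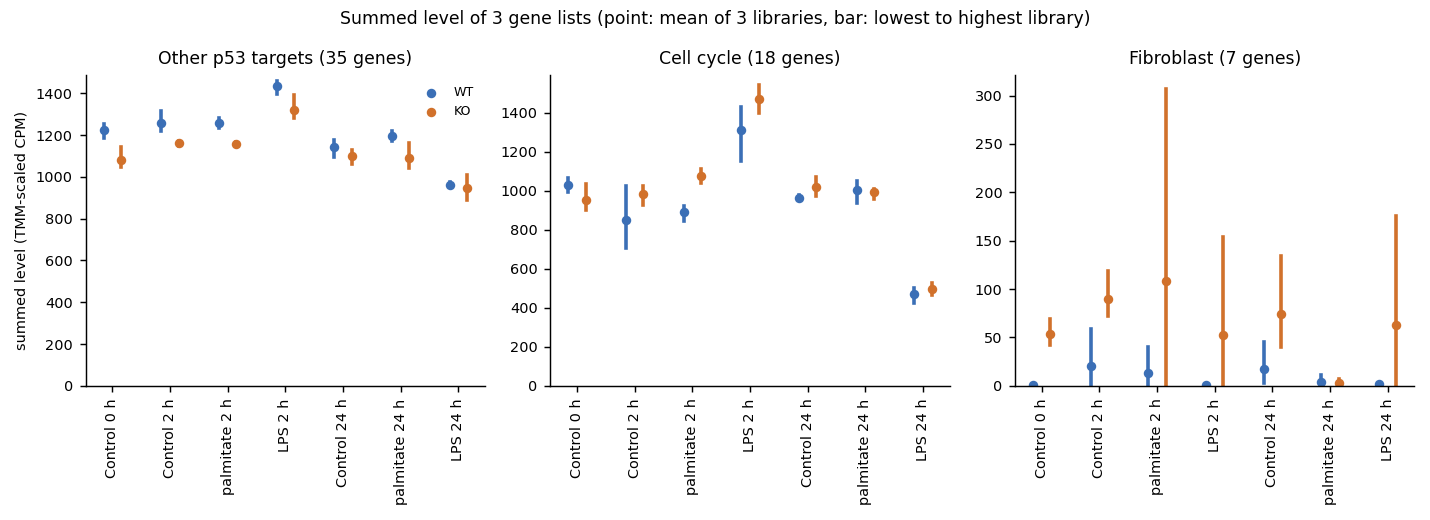
Summed level (TMM-scaled CPM, linear axes from 0) of 35 other p53 targets, 18 cell cycle genes and 7 fibroblast genes in each condition, WT in blue and labelled KO in orange, as the mean of 3 libraries with a bar from the lowest to the highest library. The cell cycle sum is above Control at LPS 2 h, where Mki67 rises and the list medians lie near 0. It drops at LPS 24 h in both genotypes (425 to 527 CPM). Fibroblast genes are near 0 in WT Control 0 h and 42.1 to 69.3 CPM in libraries labelled KO.

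No gene of the set passed the test under palmitate. Of 40 tests, 0 were called by edgeR and 0 by DESeq2, and 8 had an unadjusted p under 0.05, of which 6 were in KO at 24 h. Over all 11624 genes, 536 to 1049 per comparison had one. The share of all genes called was 0.275% and 0.112% at 2 h and 0.852% and 0.877% at 24 h in WT and KO, so that calls were rare throughout. At 2 h, Cdkn1a had a log2 fold change of 0.025 in WT (95% interval -0.16 to 0.21) and Mdm2 of 0.042 (-0.092 to 0.18). These intervals leave out a change of the size seen with LPS, with which palmitate shares its Control libraries. At 24 h the log2 fold changes lay mostly below 0, in 10 of 10 genes in WT (median -0.118, all genes -0.001) and in 8 of 10 in KO (median -0.176, all genes -0.003). Cdkn1a in KO at 24 h had -0.25 (95% interval -0.45 to -0.050, adjusted p = 0.437), with all 3 palmitate libraries below the Controls. The lowest adjusted p was that of Sesn1 in KO at 24 h, 0.197, with 97.9, 106 and 105 CPM under palmitate and 130.1, 128 and 125 CPM in Control (-0.31 ± 0.10, SE). All 3 palmitate libraries were below all 3 Controls, but how many of all genes separate this way was not counted. When only the libraries compared were fitted, Sesn1 was called (log2 fold change -0.30, adjusted p = 0.00926). In WT the Sesn1 value was -0.095 ± 0.10 (adjusted p = 0.857). Phlda3 in KO at 24 h had the most negative value, -0.75 ± 0.33 (adjusted p = 0.538), and its interval, -1.41 to -0.097, shows how little its counts can resolve. Of the other p53 targets, Plk2 fell at 2 h in WT (-0.40 ± 0.089, adjusted p = 0.0243) and Plk3 at 24 h in WT (-0.52 ± 0.14, adjusted p = 0.0491). Of the other lists, Cop1 was called higher (0.38 ± 0.088, adjusted p = 0.0146) and Bcl2l1 lower (-0.29 ± 0.077, adjusted p = 0.048) at 24 h in KO. Palmitate at 24 h minus palmitate at 2 h gave 0 calls in 10 genes by edgeR, where 1.28% of all genes were called. Of the 10 genes, 2 had an unadjusted p under 0.05, beside 1295 of all 11624 genes. Ccng1 had an adjusted p of 0.0712 (-0.25 ± 0.072). DESeq2 called it (adjusted p = 0.0224), as did a fit of only the libraries compared (0.0249) and one without WT Control 2 h library 1 (0.0256).

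The genotype comparison sets the libraries labelled KO, for a myeloid deletion of Irf5 that the Irf5 counts do not show, against those labelled WT. In the 6 conditions other than Control 0 h, 0 of 60 tests were called by edgeR and 0 by DESeq2, and 7 had an unadjusted p under 0.05. Over all 11624 genes, 587 to 1342 per condition had one. Of all genes, 0.49% were called at Control 2 h, 0.146% at palmitate 2 h, 0.465% at LPS 2 h, 0.12% at Control 24 h, 0.0688% at palmitate 24 h and 0.146% at LPS 24 h. The lowest adjusted p was 0.173, for Ccng1 at LPS 24 h, with 168, 151 and 154 CPM in WT and 121, 129 and 146 CPM in KO, without overlap (-0.25 ± 0.071, SE). Sesn1 at Control 2 h was 62.1, 65.2 and 68.6 CPM in WT and 78.2, 90.6 and 69.7 CPM in KO (0.28 ± 0.11, adjusted p = 0.317), the reverse direction of its value at LPS 2 h (-0.27 ± 0.14, adjusted p = 0.478). Mdm2 at LPS 2 h was lower in every KO library without being called (-0.16 ± 0.066, adjusted p = 0.313). The share of all genes that separate this way was not counted in these 6 conditions, so separation here is only a description. For Cdkn1a the values over the 6 conditions were -0.24 to 0.034, with intervals between -0.44 and 0.20, and for Trp53inp1 -0.12 to 0.020, with intervals between -0.35 and 0.20. For Bbc3 and Phlda3 the intervals reached from -1.05 to 0.95 and from -1.27 to 0.83, which shows how little their counts resolve. Differences in the treatment response between the genotypes gave 0 of 40 calls by edgeR and by DESeq2, where at most 0.0086% of all genes were called. Of the 40, 3 had an unadjusted p under 0.05, beside 411 to 810 of all 11624 genes per comparison.

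**Figure D4:**
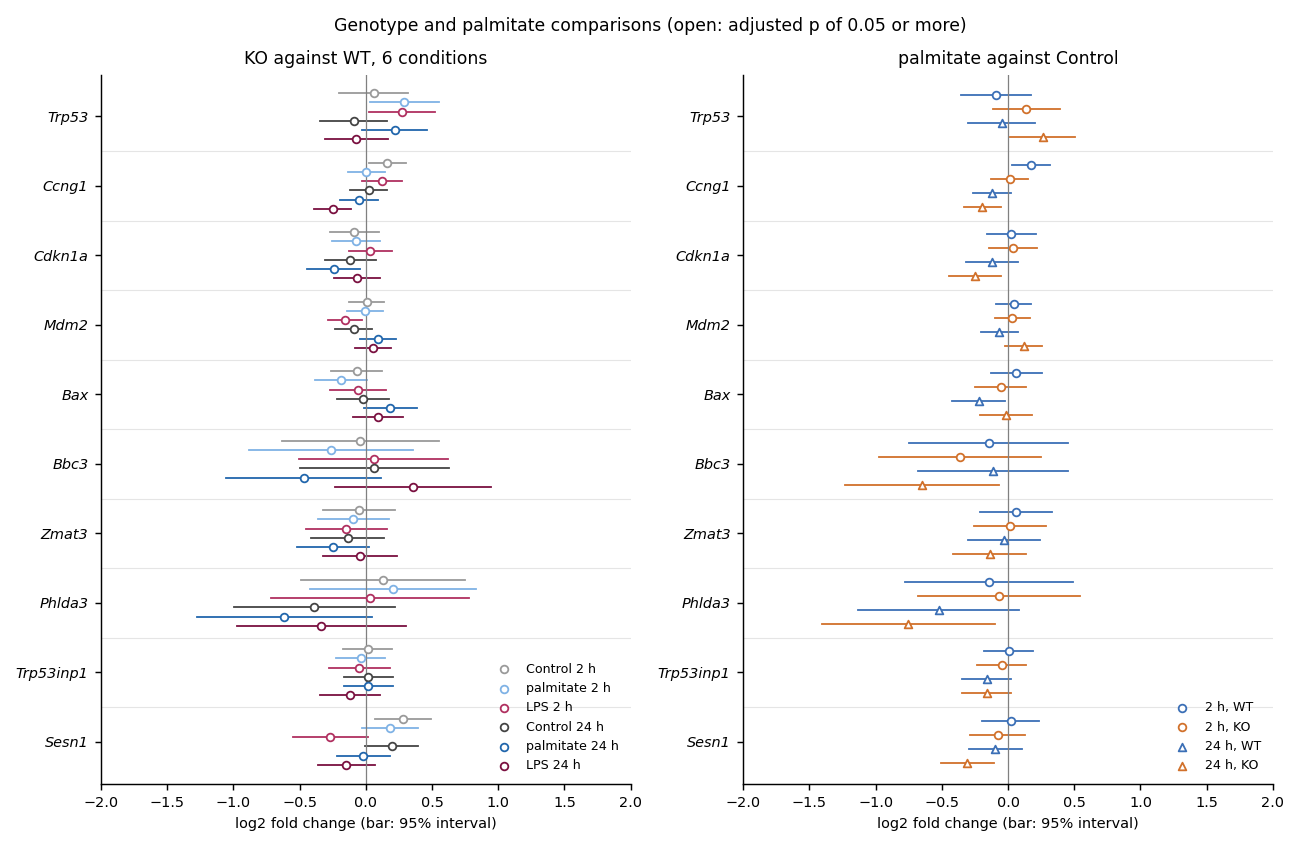
Log2 fold change with 95% interval of the 10 genes for KO against WT in 6 conditions (left) and for palmitate against Control in 4 comparisons (right). All symbols are open, since no adjusted p was under 0.05, and the wide bars of Bbc3 and Phlda3 show their low counts.

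Granulocyte precursor genes moved with the labels in part of the same libraries. Of 12 such genes 7 were tested, and 5 were called higher in KO at Control 2 h, 4 at palmitate 2 h, 3 at LPS 2 h, 4 at Control 24 h, 0 at palmitate 24 h and 1 at LPS 24 h. At 2 h their summed level in WT and in KO was 69.4 to 80.9 and 124 to 198 CPM in Control, 96.4 to 108 and 151 to 219 CPM under palmitate, and 96.6 to 128 and 189 to 304 CPM under LPS. At 24 h it was 149.9 to 156 and 236 to 322 CPM in Control and 151 to 174 and 207 to 255 CPM under palmitate, whereas under LPS the genotypes overlapped, at 425 to 615 CPM in WT and 401 to 489 CPM in KO. Over all libraries Lcn2 lay at 1.48 to 421 CPM and Mmp8 at 39.7 to 164 CPM, and their part in the sums was not tested. Elane, Prtn3 and Ctsg had 3 or fewer counts in 38, 37 and 40 of 42 libraries. LPS against Control at 24 h called 2 genes of this list higher and 3 lower in WT, and 1 and 4 in KO. That is 71.4% of the tested list in either genotype, beside 39.5% and 40.9% of all genes. Of 7 fibroblast genes 3 were tested and 0 were called by edgeR in any of the 6 conditions. An unadjusted p under 0.05 was found in 9 of 18 tests, beside 587 to 1342 of all 11624 genes per condition. Their summed level was higher in every KO library in 3 of 7 conditions, Control 0 h, Control 2 h (1.16 to 58.7 CPM in WT, 72.6 to 119 CPM in KO) and LPS 2 h (0.411 to 0.716 and 0.759 to 154 CPM), and overlapped in 4. Libraries of a group differed widely, from 0.778 to 306 CPM in KO at palmitate 2 h, and at palmitate 24 h the mean was 4.35 CPM in WT and 2.99 CPM in KO. Of the 10 macrophage markers, Lyz2, the gene of the Cre allele, was called lower in each of the 6 conditions. Itgam was called higher at LPS 2 h. No gene of the set was called in these conditions, and the part of these cell types in the genotype values was not tested. The summed level of the other p53 targets was lower in every KO library in 5 of 7 conditions. At LPS 2 h it was 1281 to 1391 CPM in KO against 1397 to 1461 CPM in WT. It overlapped at 24 h in Control and under LPS. Control 0 h is among the conditions that separated, and there 28% of single genes tested separated as well. That share was not counted in the other conditions. An abundant gene of this list, Pltp, lay at 308 to 534 CPM over all libraries, and its part in the sums was not tested. The list median log2 fold change in the 6 tested conditions was -0.068 to 0.031, beside -0.007 to 0.005 over all genes. In 32 of 192 tests on this list the unadjusted p was under 0.05, beside 587 to 1342 of all 11624 genes per condition. Over these 6 conditions, the only call between genotypes among the 32 other p53 targets tested was Gdf15 at LPS 2 h, with 88.4 ± 17.1 CPM in WT and 49.1 ± 7.35 CPM in KO (SD, n = 3, log2 fold change -0.86 ± 0.15, SE, adjusted p = 0.00121).

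Control 0 h, the start of the experiment, was the condition in which these genes had drawn attention, so its values are described without a test. Ccng1 lay at 174, 168 and 194 CPM in WT and 113, 119 and 102 CPM in KO, means of 179 ± 13.3 and 111 ± 8.16 CPM (SD, n = 3). The WT group was the highest and the KO group the lowest of all 14 groups for this gene. Cdkn1a lay at 92.3, 73.6 and 73.3 CPM in WT and 43.2, 53.1 and 40.1 CPM in KO, which was its lowest group. Zmat3 (57.2, 44.99 and 47.6 against 33.96, 40.4 and 35.4 CPM), Sesn1 (109, 110.0 and 133 against 101, 106 and 91.6 CPM) and Bbc3 (7.96, 7.58 and 8.07 against 4.32, 6.85 and 6.30 CPM) were also lower in every KO library. Mdm2 (148, 142 and 158 against 183, 165 and 161 CPM) and Bax (42.5, 41.4 and 47.1 against 55.4, 52.6 and 48.04 CPM) were higher in every KO library. Trp53, Phlda3 and Trp53inp1 overlapped between genotypes. The set was thus split, with Trp53 mRNA close in both genotypes (log2 fold change -0.044) and targets on either side of it, from -0.81 for Phlda3 to 0.25 for Bax. Of all genes tested, 12.5% were called in this contrast, and in 28% the libraries of the 2 genotypes did not overlap. Fibroblast genes summed to 0.662 to 0.947 CPM in WT and 42.1 to 69.3 CPM in KO, and granulocyte precursor genes to 104 to 119.6 CPM and 139 to 153 CPM, and their part in these values was not tested.

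Time in culture without treatment was compared with the same 0 h libraries that were known when the genes were chosen, so its values are described, genotype by genotype, as log2 ratios of mean CPM with no p-value. Over both genotypes, 4 of the 10 genes passed the threshold at 2 h, where 16.7% of all genes did, and 5 of 10 at 24 h, where 16.5% did, and nothing is read from these counts. Mdm2 lay at 148, 142 and 158 CPM at 0 h and 293, 283 and 255 CPM at 2 h in WT (log2 ratio 0.89), and at 183, 165 and 161 CPM and 281, 286 and 267 CPM in KO (0.71), higher in every 2 h library. Cdkn1a was also higher in every 2 h library, by 0.36 in WT and 1.09 in KO, and Sesn1 was lower in every one (-0.85 and -0.32). Trp53inp1 was higher in every library at 2 h in KO (0.46) and overlapped in WT (0.19). Trp53 overlapped in both (-0.29 and -0.19). The Control 2 h libraries also enter the comparison with LPS.

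At 24 h Trp53inp1 was the one gene of the set that was higher than at 0 h in every library of both genotypes (0.33 in WT and 0.60 in KO, log2 ratios of mean CPM). For other genes the values were given by genotype because they were unlike. Bax overlapped with 0 h in WT (0.05) and was lower in every library in KO (-0.216), as it was at 2 h (0.082 and -0.237). Cdkn1a overlapped with 0 h in WT (0.025) and was higher in every library in KO (0.74), while Mdm2 was higher in every library in WT (0.34) and overlapped in KO (0.062). Sesn1 overlapped in WT (-0.077) and was higher in every library in KO (0.36), with 130.1, 128 and 125 CPM at 24 h against 101, 106 and 91.6 CPM at 0 h. Phlda3 overlapped in WT (0.43) and was higher in every library in KO (0.90), on few counts. Ccng1 took opposite courses, and opposite signs follow from 0 h groups that were its highest in WT and its lowest in KO. Libraries of WT lay at 174, 168 and 194 CPM at 0 h and 156, 149.5 and 162 CPM at 24 h, and KO libraries at 113, 119 and 102 CPM and 164, 159 and 152 CPM. None of these differences between the genotypes was tested. By 24 h Cdkn1a overlapped between the genotypes (74.95, 74.2 and 94.1 CPM in WT, 80.5, 77.8 and 69.2 CPM in KO).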

How the data were processed

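Stranded, ribodepleted total RNA libraries of BMDM were sequenced in paired ends. Per the methods and the labels, reads were trimmed with fastp 0.19.11 and aligned to mm10 with STAR 2.7.3a, and the authors deposited the raw, unnormalised read count of each gene. Neither the annotation release nor the strand setting of the counting is given in the sources used here. Columns name a group of 3 libraries and no replicate number, 0 columns were left out, and no pair of replicates matched within sampling noise (chi-square per degree of freedom 1.93 to 9.32 over 42 pairs).

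Symbols were matched for 32620 of 37310 identifiers, and gene positions and exon lengths were taken from GENCODE for GRCm38. Counts were filtered with filterByExpr, scaled by TMM and fitted in R 4.3.3 with edgeR 4.0.16 (quasi-likelihood, 1 mean per group over 42 libraries). Levels are TMM-scaled CPM. Where libraries of 2 groups do not overlap, this is a description. The share of all genes that do so was counted only for KO against WT at Control 0 h (28%). An SE is the log2 fold change divided by the square root of F, and intervals are 95%. Counting error alone sets a floor of 3 counts. On data simulated for LPS against Control at 2 h in WT, 200 genes were changed by 2-fold or 4-fold, fewer genes than LPS changed here. Of those that passed the filter (11360 genes in all), edgeR recovered 86.8%, with 2.29% false calls and 0 calls where nothing had been changed. These shares do not apply to smaller changes.

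The 10 genes, the other lists (p53 targets, p53 regulators, BCL2 family, cyclin-dependent kinase inhibitors, cell cycle and cell type markers) and the comparisons were chosen with earlier results of these data known. KO against WT at Control 0 h, and single genes at 2 or 24 h against 0 h in Control, were therefore described without a test. From the other lists, at most 3 called genes per direction and comparison were eligible to be named, those with the smallest adjusted p. Likeness was Pearson's r of log2(CPM + 1) group means over 14 groups among the 11242 genes that averaged 1 CPM or more. Alternatives were RLE size factors, no filter on low counts, fits restricted to the libraries compared, DESeq2 1.42.0 with its Wald test (the tool of the study), for genotype the study's own threshold (log2 fold change beyond 1 in size, unadjusted p under 0.05), leaving out each library, and leaving out the 4 libraries with the lowest totals.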

Additional observations from a re-analysis of the deposited data

Results flagged for a closer look

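The LPS effect differed between 24 h and 2 h, by the test of the difference itself in edgeR over both genotypes, for 6 of the 10 genes, where 46.3% of all genes tested differed. The log2 difference, 24 h minus 2 h, was -1.36 for Cdkn1a, -1.23 for Mdm2, -1.41 for Bbc3, -0.58 for Trp53 and -0.70 for Trp53inp1, and 0.24 for Bax. The first 4 genes were raised by LPS at 2 h and less so or not at 24 h, Trp53inp1 was lowered at both times, and the value of Bax did not hold under several alternatives.

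Ccng1 in Control cells moved in opposite directions with time in the 2 genotypes. In WT every library was lower at 2 h and at 24 h than every library at 0 h, with log2 ratios of mean CPM of -0.44 and -0.20. In the libraries labelled KO every library was higher, with log2 ratios of 0.41 at 2 h and 0.51 at 24 h. The difference between genotypes was not tested, since it rests on the 0 h libraries known when the genes were chosen. Opposite signs follow from those libraries, because WT Control 0 h was the highest and KO Control 0 h the lowest of the 14 groups for Ccng1. How many of all genes separate from 0 h in this way was not counted. Between the genotypes, 12.5% of all genes were called at Control 0 h, beside 0.49% at Control 2 h and 0.12% at Control 24 h.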

How the results depend on the processing

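Of 29 calls on the 10 genes, those against Control 0 h left aside, 21 held in every alternative run and 8 were lost in at least 1, and no call changed sign. The 8 were Bbc3 at LPS 2 h and Zmat3 at LPS 24 h in WT and in KO, Ccng1, Mdm2 and Bax at LPS 24 h in KO, and Bax in the LPS effect at 24 h minus 2 h. Leaving out 1 library at a time, 20 to 24 of 40 LPS tests, 7 to 10 of 20 tests of time in Control and 5 to 7 of 20 tests of 24 h against 2 h were called, and 0 tests of genotype, palmitate and interaction in each case. Counts differed from those reported by under 1.5 times except for palmitate, where a fit of only the libraries compared called 1 gene (Sesn1 in KO at 24 h) in place of 0. Without the 4 libraries with the lowest total counts, an alternative chosen after seeing the data, 19 LPS, 8 time and 5 late against early tests were called. RLE and DESeq2 each gave 23 LPS and 9 time calls. The time calls rest on the 0 h libraries known when the genes were chosen, so nothing is read from their stability. The median log2 fold change of all genes was at most 0.0186 in size. No paired analysis was possible because the columns carry no replicate numbers. Depth limits Bbc3 and Phlda3 most, at 14 to 72 and 8 to 70 counts per library.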

Other observations

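The genes whose group means followed each gene of the set most closely differed between its members. Over the 14 groups, Mdm2 went with Maff (Pearson r = 0.991), Prag1 (0.990) and Junb (0.990), of which Maff and Junb encode bZIP transcription factors. Cdkn1a went with Zfp281 (0.983), Abtb2 (0.980) and Gadd45b (0.978), and the r between Mdm2 and Cdkn1a was 0.904. Trp53 went with Apaf1 (0.957), the apoptosome scaffold of the other p53 targets, then Ppp2r2a (0.946) and Ube2e2 (0.935). Trp53inp1 went with Rap2a (0.971), BC005537 (0.969) and Atf3 (0.966), and Sesn1 with Gpr146 (0.973), Patz1 (0.963) and Ypel2 (0.952). Sesn1 ran against Cdkn1a (r = -0.923) and Mdm2 (-0.905). Zmat3 went with Akt1 (0.924), Wee1 (0.912) and Nynrin (0.907), and Bax with Qpctl (0.898), Ifrd2 (0.896) and Ceacam19 (0.894). Lower values were found for Bbc3, with Dcun1d3 (0.844), Kctd10 (0.839) and Nr1h2 (0.838), for Ccng1, with Cln6 (0.837), Nenf (0.821) and Lsm6 (0.809), and for Phlda3, with Arsg (0.807), Cracr2a (0.783) and Cln6 (0.781). These are the highest of 11242 correlations each, over groups that share treatments, and are descriptions only. Trp53 and its targets were not alike as a set, with r to Trp53 of 0.632 for Cdkn1a, 0.436 for Mdm2, -0.510 for Sesn1 and -0.617 for Trp53inp1.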
